A study of Mus musculus with 12 samples.

Results

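The Minar1 locus on mouse chromosome 9 was described peak by peak for acetylation of histone H3 at lysine 27 (H3K27ac), a mark of active promoters and enhancers. The gene was chosen by measured values: its covered length, the number of bases under H3K27ac peaks, was shorter in the mutant in an earlier comparison of these same libraries over all genes. The WT against mutant values at Minar1 are therefore a description, with no test. The locus was taken as the gene body (89587208 to 89623887, mm10) plus 100 kb on each side, that is 89487208 to 89723887. Merging overlapping peaks of all libraries gave 5 regions in the locus, of 85918 in the genome.

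All libraries came from whole cortex of mouse embryos at E15.5, during cortical neurogenesis. Both genotypes carried a floxed Prdm16 allele on both chromosomes (Prdm16 flox/flox), so the group called WT is a floxed control without Cre. The mutant (cKO) also carried Emx1Ires-Cre, a driver of the dorsal forebrain progenitors and the cells they produce, which leaves other cells of the lysate, such as vessels and microglia, unrecombined. Prdm16 encodes a zinc-finger chromatin regulator. There were 3 H3K27ac libraries per genotype. Peaks numbered 66493, 75563 and 48168 in WT replicates 1, 2 and 3, and 59209, 58682 and 55015 in the cKO replicates. Read depth is unknown. By their library identifiers, both genotypes had replicates 1 and 2 in a first set (batch A) and replicate 3 in a second (batch B). No label says whether replicates were separate embryos, so their spread may be technical, and H3K27ac peaks do not check the deletion.

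Minar1, also called Kiaa1024, encodes a membrane-anchored and largely disordered protein. It is known to bind the NOTCH2 receptor, and, under the name UBTOR, to bind DEPTOR, an inhibitor of the kinase mTOR, and to restrain mTOR signalling and neurite outgrowth. H3K27ac at an active gene typically lies on the nucleosomes on both sides of the transcription start and can spread into the gene body. Minar1 is on the minus strand, so downstream means towards lower coordinates. The start used here, 89622986, is that of the RefSeq promoter table. The gene record reaches 901 bp further upstream.

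The results turn on this start, so the 250 bases before it are shown first, beside those of Tmed3, the neighbouring gene. Capitals mark matches to GGGCGG, the GC box, on either strand (RefSeq, GRCm38.p6, both genes on the minus strand). Minar1 lies at chr9:89622987-89623236 and Tmed3 at chr9:89705044-89705293.
Minar1: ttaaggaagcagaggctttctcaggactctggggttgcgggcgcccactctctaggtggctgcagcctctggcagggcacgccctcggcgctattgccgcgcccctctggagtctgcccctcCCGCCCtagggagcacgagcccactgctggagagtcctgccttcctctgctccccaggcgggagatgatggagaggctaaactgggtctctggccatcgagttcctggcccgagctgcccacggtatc
Tmed3: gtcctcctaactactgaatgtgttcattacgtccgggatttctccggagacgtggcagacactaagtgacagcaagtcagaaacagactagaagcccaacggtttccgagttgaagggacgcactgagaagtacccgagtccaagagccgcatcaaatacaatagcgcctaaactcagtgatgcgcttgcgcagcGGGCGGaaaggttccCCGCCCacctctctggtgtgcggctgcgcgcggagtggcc

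The Minar1 stretch had a GC content of 65.6%, above that of 78.7% of 21238 protein-coding starts, and 13 CpG dinucleotides. Its CpG observed-over-expected ratio was 0.484, close to the median of 0.53 over all starts. The Tmed3 stretch had a GC content of 56.4% and a ratio of 0.956, higher than at 89.1% of starts. Minar1 had 1 match to GGGCGG and Tmed3 had 2, and 42.6% of all stretches of this length hold one. On either strand, neither stretch held CAGATG (present in 12.4% of such stretches), TTGGC (in 42.9%), CCAAT (in 35.4%) or TATAAA (in 11.6%). Only GGGCGG matched, so matches of different motifs could not overlap. A missing match says only that these letters are not in this window.

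The region at the Minar1 start carried H3K27ac in all 3 WT lists and was shorter or absent in every cKO list. It spanned 89620396 to 89623570, from 584 bp upstream to 2590 bp downstream of the start. WT replicate 1 had a single peak of 3175 bp, and WT replicate 2 a single peak of 3006 bp. WT replicate 3, the shortest of the 6 lists, had a pair of peaks, of 980 bp over the start and 988 bp further downstream. cKO replicate 1 had a peak of 765 bp over the start, and cKO replicate 2 a peak of 274 bp that lay wholly upstream of it. cKO replicate 3 had no peak there. The genotypes did not overlap: the shortest WT coverage was 1968 bp and the longest cKO coverage 765 bp.

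**Figure D1:**
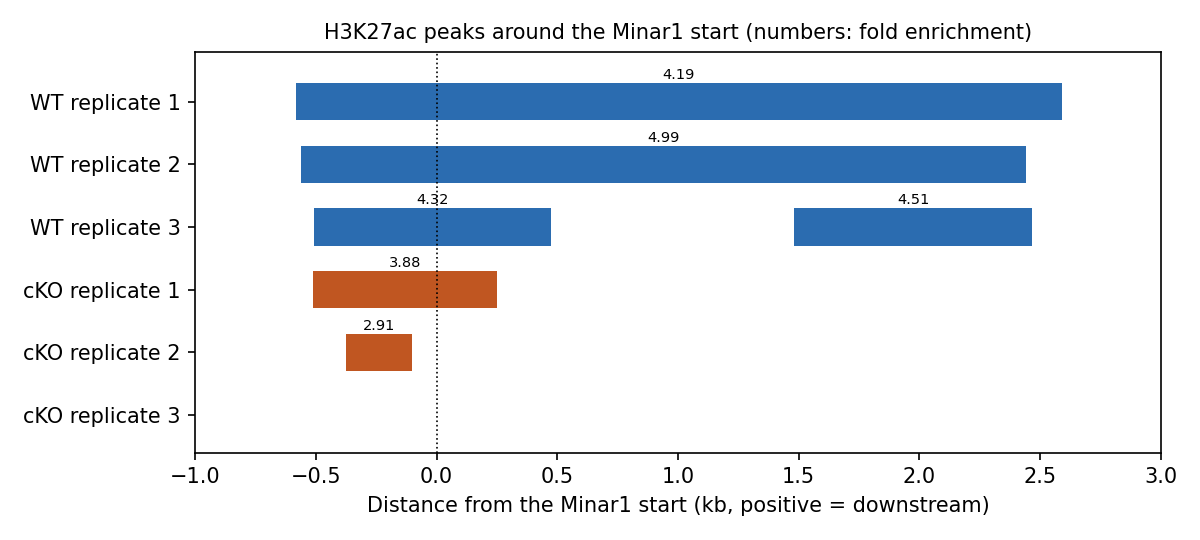
H3K27ac peaks around the Minar1 start in each library, as bars along the distance from the start in kb, positive downstream, WT in blue and cKO in orange; the number above a bar is the fold enrichment that the authors' peak caller gave it. WT peaks reach more than 2 kb downstream, the peaks of cKO replicates 1 and 2 stay near the start, and cKO replicate 3 has none.

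The acetylation missing from the cKO lists lay mainly downstream of the start. The whole region, its upstream part included, lies inside the gene record. A stretch of 964 bp, 89620543 to 89621506, was under a peak in all 3 WT lists and in 0 cKO lists. It lies 1480 to 2443 bp downstream of the start. A further 222 bp, from 252 to 473 bp downstream, had the same pattern. Together these 1186 bp made up 37.4% of the region, and 61.0% of its bases under a peak in all 3 WT lists. Upstream, 274 bp (89623088 to 89623361) were under a peak in all 3 WT lists and in cKO replicates 1 and 2, and 0 bp of the region were under a peak in all 6 lists. Exon and intron positions were not used here. Over the genome, 51.11 Mb were under a peak in all 3 WT lists, and 1.76% of that length was under none in cKO, the share that compares with 61.0%. The locus was chosen on this contrast, so nothing is read from the difference.

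Coverage this far downstream was itself uncommon in WT. All 3 WT lists had a peak over the start base at 53.0% of the 21238 starts, and over the base 2000 bp downstream at 5.95%. Among the 11266 starts with a peak over the start base in all 3 WT lists, 64 (0.568%) had one in at most 1 cKO list. Minar1 is one of these, since only cKO replicate 1 covered its start base. Among the 1264 starts covered 2000 bp downstream in all 3 WT lists, 9 (0.712%) were covered there in 0 cKO lists, Minar1 included. Of 1084 starts with both positions covered in all 3 WT lists, 1 met both conditions, Minar1 itself. These conditions were copied from the Minar1 peaks after their values were seen and use the contrast on which the gene was chosen, so nothing is read from them.

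The start region was of modest strength in WT. Fold enrichment of its WT peaks, the authors' peak caller's own value, was 4.19, 4.99, 4.32 and 4.51, and the median fold of all peaks was 4.45, 4.175 and 5.533 in WT lists 1, 2 and 3. Their -log10 q was 3.99 in WT replicate 1, 6.9 in WT replicate 2, and 3.69 (over the start) and 3.54 (downstream) in WT replicate 3. Within its own list the WT replicate 1 peak exceeded 43.5% of peaks, the WT replicate 2 peak 63.2%, and the WT replicate 3 peaks 27.8% and 26.0%. The region therefore stood in the lower part of its list in WT replicate 3 and near the middle in the other two. In cKO replicate 1 the peak had a fold of 3.88 and a -log10 q of 3.41, above 30.3% of its list. The cKO replicate 2 peak had a fold of 2.91 and a -log10 q of 1.53, just above the lowest value in that list, 1.312.

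The start region was then set beside regions of like strength. Of 5416 regions with a peak in all 3 WT lists and a lowest WT -log10 q from 3 to 4 (3.69 at the Minar1 start, taking the highest peak of each list), 87.1% had a peak in all 3 cKO lists. A further 8.14% had one in 2 cKO lists, as the Minar1 start did, 2.99% in 1 and 1.81% in 0. When peaks with a -log10 q below 5 were left out, the start region was held by WT replicate 2 alone. When every list was reduced to its 48168 strongest peaks, the peak of cKO replicate 2 dropped out and the other lists kept their lengths.

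Covered length in the Minar1 gene body plus 20 kb on each side measured 3175, 3247 and 1968 bp for the WT lists, and 765, 274 and 0 bp for the cKO lists. The lowest WT library lay above the highest cKO library, in batch A (replicates 1 and 2) and in batch B (replicate 3) alike. Scaled for the total length of peaks around genes in each list, the values were 2827, 2661 and 2558 bp in WT and 760, 277 and 0 bp in cKO. The means were 2682 ± 136 bp and 346 ± 385 bp (SD, n = 3 each). The log2 change, cKO minus WT, of scaled length plus 500 bp was -2.01 ± 0.21 (SE, limma fit over 15354 genes), in a fit that called 42 genes (0.274%). That count ranged from 1 to 107 over the alternative settings. In a lysate of mixed cells, fewer acetylating cells and less acetylation per cell cannot be told apart.

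**Figure D2:**
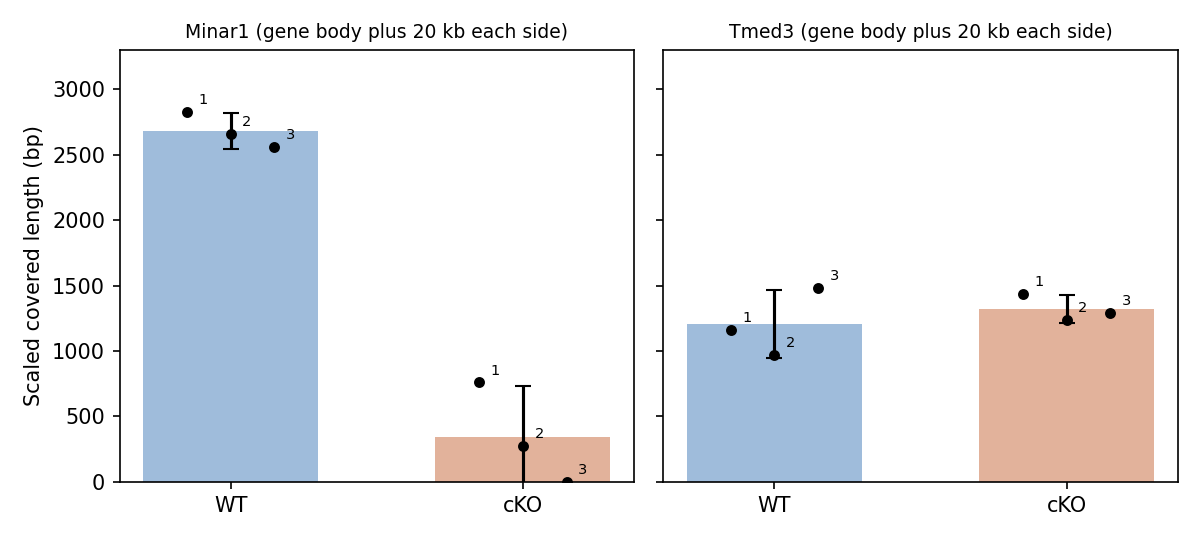
Scaled H3K27ac covered length in bp in the windows of Minar1 (left) and Tmed3 (right); bars are means of 3 libraries, error bars SD, and points single libraries marked with their replicate number. The Minar1 points lie between 2558 and 2827 bp in WT and between 0 and 760 bp in cKO, while the Tmed3 points of the genotypes overlap.

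The Tmed3 start, the nearest protein-coding neighbour, kept its H3K27ac peak in all 6 lists. Tmed3 (89699203 to 89705043) lies 75316 bp upstream of the Minar1 gene record and encodes a p24-family protein of cargo transport between endoplasmic reticulum and Golgi. Its peak was 1304, 1186 and 1141 bp long in WT and 1447, 1224 and 1149 bp in cKO. Fold enrichment was 14.7, 15.1 and 13.1 in WT and 16.3, 17.2 and 14.5 in cKO. Ranked by -log10 q, these peaks stood above 93.6 to 97.6% of their lists. Scaled covered length in the Tmed3 window, which shares no base with that of Minar1, averaged 1205 ± 259 bp for WT and 1321 ± 104 bp for cKO libraries (SD, n = 3). The log2 change was 0.10 ± 0.12 (SE), smaller than its SE, and Tmed3 was not called (limma, Benjamini-Hochberg adjusted p = 0.851).

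At the far end of the locus, a distal region had a peak in all 6 lists. It lay between genes at 89496778 to 89497775, 125211 to 126208 bp downstream of the Minar1 start and beyond the end of the gene. Peaks were 998, 818 and 514 bp long in WT and 473, 549 and 555 bp in cKO. These deposited lengths overlapped, since WT replicate 3 was shorter than cKO replicates 2 and 3. Scaled like the Minar1 window, they were 889, 670 and 668 bp for WT and 470, 555 and 623 bp for cKO, so that every cKO value was the shorter and the overlap depends on the scaling. The share of all regions with separate scaled groups was not computed, so nothing is read from this separation. The percentiles of the distal peaks by -log10 q were 43.9, 67.7 and 64.0 in WT and 59.0, 57.6 and 42.3 in cKO. In WT replicates 1 and 2 these percentiles were close to those of the start region and in WT replicate 3 they were higher.

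The other regions were found in 1 list of a genotype. A peak of 241 bp inside Minar1 (89611305 to 89611545, 11441 bp downstream of the start) was called in WT replicate 2 alone, the longest list. By -log10 q it exceeded 6.53% of that list. A region between Minar1 and Tmed3 (89673875 to 89674345, 50889 bp upstream of the start) had a peak of 410 bp in WT replicate 2 and of 470 bp in cKO replicate 3. No peak lay over Gm47403, a long non-coding RNA gene 27005 bp from Minar1, or over the small nucleolar RNA gene LOC115487298.

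**Figure D3:**
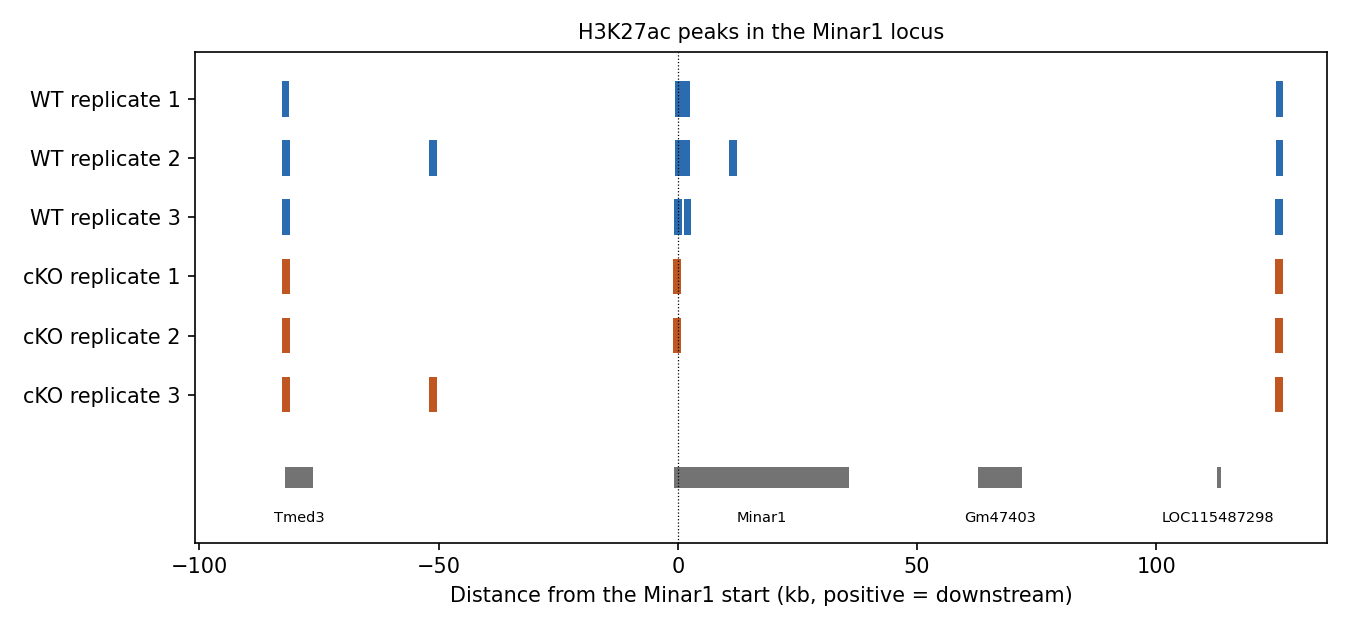
All H3K27ac peaks of the Minar1 locus by library (WT blue, cKO orange) along the distance in kb from the Minar1 start, positive downstream, with genes in grey; peaks shorter than 1.6 kb are drawn 1.6 kb wide so that they can be seen. The Tmed3 and distal regions appear in all 6 rows, while at 0 the bars of WT replicates 1 and 2 are longest and cKO replicate 3 has none. The bars at 0 of WT replicate 3 and of cKO replicates 1 and 2 are all drawn at the minimum width.

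Counted as whole regions, 0 of the 5 had a peak in all 3 WT and no cKO list, against 0.907% of regions over the genome, and 0 had the converse pattern, against 0.347%. The start region did not count as absent from cKO because cKO replicates 1 and 2 kept a shorter peak. With at least 50% of a region required under peaks, the start region counted as present in all WT and no cKO list. In fixed windows of 1 kb, 2 windows did, both on its downstream part. Over the whole locus, covered length measured 5477, 5661 and 3623 bp for WT, and 2685, 2047 and 2174 bp for cKO, with no overlap. The scaled means were 4742 ± 122 bp and 2392 ± 302 bp (SD, n = 3). Without the start region they were 2125 ± 67 bp and 2046 ± 345 bp. The difference of -79 bp was within the cKO SD but larger than the WT SD. It is a net of regions that moved in opposite directions. Scaled distal lengths were shorter in every cKO library (470 to 623 bp) than in any WT library (668 to 889 bp). The Tmed3 mean was longer in cKO, at 1321 bp against 1205 bp, with overlapping groups. The small net therefore does not show that each of the other regions was unchanged.

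**Figure D4:**
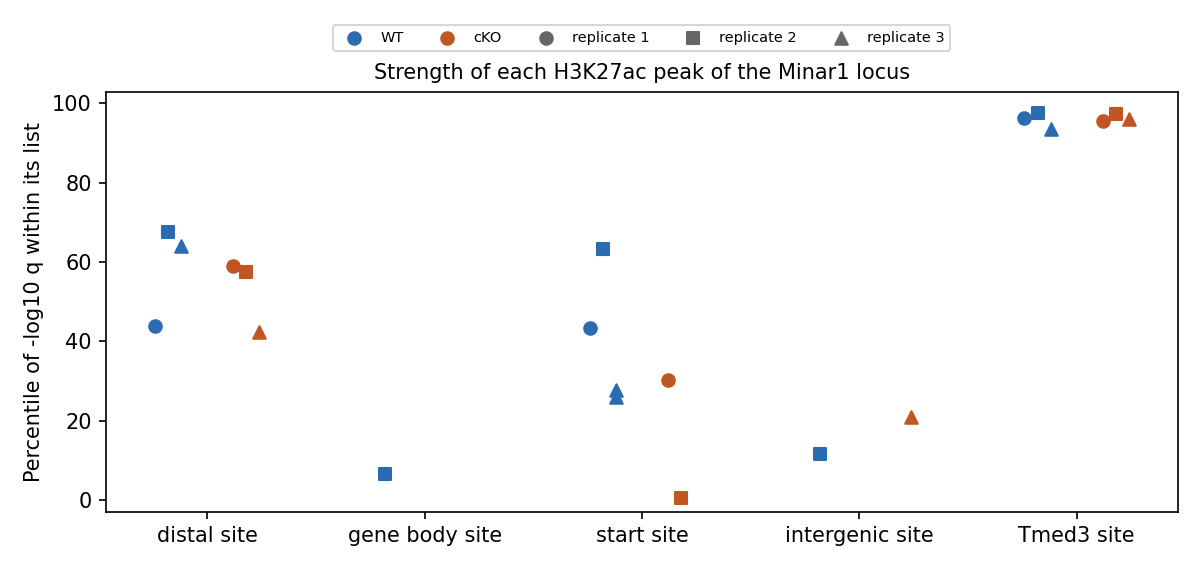
Strength of each peak in the 5 regions of the Minar1 locus, as the percentile of its -log10 q within its own list (WT blue, cKO orange, marker shape for the replicate). The start region lies between 26.0 and 63.2 in WT and at 0.503 and 30.3 in cKO, and the Tmed3 region at 93.6 or higher in all 6 lists.

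The nearest region below the locus lay 178375 bp away, with a peak in 3 WT and 2 cKO lists, and the nearest above it lay 33852 bp away, in 1 WT list. Ankrd34c, an ankyrin-repeat gene, begins just past the edge, 100046 bp from Minar1. Its window had 1161, 1111 and 1483 bp of scaled covered length in WT and 1438, 1237 and 1289 bp in cKO. Most of this is the Tmed3 peak, which that window takes in.

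No gene tied to MINAR1 by its known partners was called. Of 14 genes on the list (Minar2, its paralog, 4 Notch receptors, and mTOR complex components and regulators), all 14 were tested and 0 passed in either direction (limma, 0.274% of all genes called), with 1 at an unadjusted p under 0.05, against 10.1% of all genes tested. That gene was Notch2, whose product binds MINAR1. It had scaled covered lengths of 49474, 43111 and 46627 bp in WT and 39754, 41029 and 37226 bp in cKO (log2 change -0.23 ± 0.10, SE, limma adjusted p = 0.469). The scaled groups did not overlap, for Notch2 alone of the 14 genes. Without scaling, WT replicate 3 (35871 bp) lay within the cKO range of 33184 to 40590 bp. The share of all genes tested with separate groups was not computed, so nothing is read from this separation. Minar2 had the largest positive change, 0.19 ± 0.12, and Deptor changed by -0.15 ± 0.11. The list's median log2 change was 0.002, against 0.029 over all genes tested.

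The genes outside the locus with the pattern most like Minar1 were found by Euclidean distance over the 6 log2 scaled covered lengths. They were Tmprss15 (enteropeptidase, distance 1.59), Oas1f (oligoadenylate synthetase family, 1.62), Hpgds (prostaglandin D synthase, 1.65), the Wnt receptor gene Fzd5 (1.66) and the oxidase activator gene Noxa1 (1.8). Fzd5 had 3703, 3392 and 3500 bp in WT and 224, 1026 and 434 bp in cKO. In all 5 genes the groups did not overlap, which follows from choosing them by likeness to Minar1. The log2 changes of the other 4 ran from -0.79 to -1.02. The 6 libraries behind each distance are shared by all genes, and the measure was fixed with the Minar1 values known.

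The tissue was checked by marker genes. All 10 markers of cortical progenitors and neurons and all 4 of interneurons had H3K27ac in all 6 lists. So did 2 of 3 endothelial, 2 of 3 microglial, 1 of 3 meningeal and 2 of 3 blood markers, with Hbb-bt at 0 in all lists. None of the markers that were tested passed the limma threshold, against 0.274% of all genes tested. At that share, lists this short would seldom hold a called gene. Markers under the length filter, such as Hbb-bt, were not tested. Summed scaled length over the microglial markers ranged over 8256 to 9033 bp for WT and 7151 to 7721 bp for cKO, without overlap. Over the meningeal markers it ranged over 6872 to 9603 bp and 5821 to 7242 bp, and in every list but the microglial one the ranges overlapped. How often sums of other gene sets separate, and the sums without scaling, were not computed, so nothing is read from the separation. The part of these cell types in the Minar1 values was not tested.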

How the data were processed

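H3K27ac was profiled in 3 WT and 3 cKO libraries by native chromatin immunoprecipitation after micrococcal nuclease digestion, per the labels' protocols. The submitters' processing notes list FastQC, cutadapt, Bowtie2 2.2.8, MACS2 2.1.1 and mm10. Parameters, and whether the 6 inputs (not analysed here) served as control, are not given in the labels or notes. The deposited lists give, per broad peak, a fold enrichment ratio, a display score that was left aside, and -log10 p and -log10 q values. The deposited lists hold no read counts. Fold values and percentiles describe peaks within a list. Cuts on -log10 q (at least 5, and the range that defined regions of like strength) were the same in every list, although these values may not be comparable between lists.

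Regions were formed by merging peaks that overlapped or touched. Covered length per gene (body plus 20 kb each side, 21887 protein-coding genes of RefSeq GRCm38.p6) was scaled to the same sum over genes, log2 transformed after adding 500 bp, and fitted with limma 3.58.1 (R 4.3.3) with batch as covariate, keeping genes that averaged 1000 bp or more. A gene was called when its Benjamini-Hochberg adjusted p over all genes was under 0.05. Python 3.11.15, numpy 2.4.6, pandas 2.3.3 and matplotlib 3.10.9 served elsewhere. The fit was run on simulated data with the same spread for every gene, no batch effect and no floor at 0. That run does not cover genes with a library at 0, such as Minar1. Promoter strand was checked on 790 overlapping opposite starts, all reverse complements. The locus, gene lists, motifs and tests were chosen with earlier results of these data known. Named genes were Minar1, genes overlapping or bordering the locus, the 5 nearest by distance, and listed partners with the largest changes. Ankrd34c, just outside the locus, was added after its values were seen. Alternatives were other peak filters, list lengths, scalings, pseudocounts, windows, region rules, covariates and each library left out.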

Additional observations from a re-analysis of the deposited data

How the results depend on the processing

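The log2 change of Minar1 was negative in every setting that gave one, including each library left out, where it ran from -2.30 to -1.72. Minar1 was chosen on this contrast, and its WT and cKO lengths did not overlap. Leaving out a library could therefore hardly turn the sign, and nothing is read from its staying negative. The log2 change was -3.12 with a pseudocount of 100 bp, -1.01 with 2000 bp and -0.87 with the gene body plus 100 kb, which takes in the Tmed3 and distal regions. With a replicate block it was -2.01. Correlations of same-numbered libraries were 0.131, 0.0631 and 0.261, and those of the other pairs ran from -0.226 to 0.167. The 0.167 was for WT replicate 2 with cKO replicate 1, both of batch A, and replicate 3 is batch B in both genotypes. Whether the numbers pair the libraries is therefore not settled by these values. The block moved the count of genes called from 42 to 67. That count was 10, 3 and 2 without WT replicates 1, 2 and 3, 37, 73 and 2 without cKO replicates 1, 2 and 3, 16 without the batch covariate, 12 and 107 with pseudocounts of 100 and 2000 bp, 1 without scaling or without the filter, 17 with quantile normalization, 67 with the gene body plus 5 kb, 21 with peaks of -log10 q of at least 5, 2 in batch A, and 106 scaled to the length of each list. With peaks of -log10 q of at least 5, Minar1 was under the length filter and gave no value. Tmed3 turned to -0.97 with the gene body plus 100 kb (limma adjusted p = 0.0197), a window that takes in the Minar1 start region. The locus was chosen on the values of that region, so this p is void as a test and says nothing of Tmed3 itself. In the other settings Tmed3 stayed positive and uncalled (limma adjusted p 0.442 to 1). The count of regions in all WT and no cKO list was 1 with at least 50% covered and 2 in windows of 1 kb. The whole-locus difference, -2350 bp, was -2618 bp without scaling, -857.9 bp with peaks of -log10 q of at least 5, and -2592 bp in batch A. With that cut on -log10 q the start region was held by WT replicate 2 alone, so its part in the -857.9 bp rests on that library. Batch A and scaling to the total length of each list were chosen after seeing the data. Peak lists without read depth limit all values to called peaks, and signal under the calling threshold cannot be seen.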

Other observations

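The 9 starts covered 2000 bp downstream in all 3 WT lists and in 0 cKO lists were those of Alk, Ccdc50, Ccser1, Gpr137c, Minar1, Ptprg, Shoc2, Slc29a1 and Tfap2d. At 6 of them (Alk, Ccdc50, Ccser1, Gpr137c, Ptprg and Shoc2) all 3 cKO lists kept a peak over the start base itself. At Slc29a1 and Tfap2d, 0 cKO lists covered the start base, which 1 and 2 WT lists covered. Minar1 had 3 WT lists and 1 cKO list there. These genes were named after their values were seen, and no test was made of them.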
